A study of Mus musculus with 12 samples.

Results

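The proteins of the photoreceptor outer segment, where light is detected, are made in the inner segment. The genes described here were grouped as taking part in moving such proteins, many of them lipid-modified, or in preparing them for the move. They are Unc119 and Pde6d (lipid-binding carriers), Arl3, Arl2 and Rp2 (small GTPases of the Arl family and the protein that switches Arl3 off), Tulp1 and Tub (tubby proteins), and Rd3 and Aipl1 (helpers of guanylate cyclase and of phosphodiesterase 6). The rule that picks them uses gene symbols and no measured value, and the 9 described are among the 53707 genes in the count table. Every one of the 9 passed the filter on low counts that left 21061 genes for testing.

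RNA was sequenced from retinal explants of wild-type C57BL/6J mice aged P28, kept for 48 h in Neurobasal-A medium with B27 and N2 supplements and either 5 mM or 25 mM glucose. The sclera and the retinal pigment epithelium had been removed before culture. Each condition had 3 biological replicates, and each of these gave 2 libraries (technical replicates), so that 12 libraries entered the analysis. Technical replicate 1 is always batch 1 and technical replicate 2 always batch 2. The labels do not say what a technical replicate repeats, so what the batches stand for is not known. Both groups carried the same genotype and differed in glucose. The labels do not say how many retinas or animals make up a biological replicate, so the p-values measure the spread between these samples. The comparison of 25 mM with 5 mM asks how the supply of glucose bears on the transcripts of these genes.

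Many outer segment proteins carry a fatty acid or an isoprenoid that would hold them on the first membrane they meet. UNC119 covers the acyl chain of rod transducin alpha and related proteins, and PDE6D covers the prenyl group of phosphodiesterase 6, the kinase GRK1 and others, so that the cargo can cross the cytoplasm and the connecting cilium. ARL3 bound to GTP then opens the carrier and releases the cargo, and RP2 makes ARL3 hydrolyse its GTP. TULP1, RD3 and AIPL1 are made mainly in photoreceptors, and inherited loss of each of them causes retinal degeneration.

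Library totals ranged from 17998905 to 36692484 estimated counts at 5 mM and from 14815285 to 23129541 at 25 mM, and mitochondrial transcripts took 5.91 to 11.8% and 7.94 to 15.4% of them. Markers of the labelled tissue were present. All 6 rod markers were tested, and their summed level ran from 1279 to 1940 CPM (counts scaled to the library total) at 5 mM and from 2884 to 3514 CPM at 25 mM. Of these rod markers, 4 of 6 rose at 25 mM (Nrl, Nr2e3, Cnga1 and Pde6b), with a median log2 fold change of 1.23 over the list. Among cone markers 1 of 6 rose, the weakly detected Opn1mw, whose mean went from 1.24 to 4.18 CPM. By log2 fold change 4 of the 6 cone markers lay above 0 and 2 below. The 2 below were Opn1sw, lower without overlap (-1.01, FDR 0.0704), and Pde6h, which overlapped (-0.20, FDR 0.749). None of the 40 tested markers of bipolar, amacrine, ganglion, Müller, vascular, microglial and pigment epithelial cells passed the test in either direction. Vascular markers had a median log2 fold change of -2.06 and summed levels of 912 to 1587 CPM at 5 mM against 505 to 841 CPM at 25 mM. Microglial markers had a median of -0.96, with sums of 139 to 196 CPM against 46.8 to 119 CPM. Of the pigment epithelial markers, Rpe65 and Pmel were too low to be tested, and the other 4 summed to 13.7 to 15.1 CPM against 7.40 to 10.7 CPM. Biological replicate 1 at 5 mM stood apart, since leaving it out raised the genes called from 417 to 5845. Its libraries had mitochondrial shares of 11.8 and 7.56%, and its summed total of 60098862 counts was the highest. At 25 mM, replicate 2 had shares of 15.4 and 10.2% and the lowest summed total, 37944826 counts. Whether these traits bear on the results was not tested. In whole tissue a larger share of rods and more RNA per rod cannot be told apart, which holds for every level below, and the part of these markers in the results below was not tested.

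Over the 9 genes, 2 rose at 25 mM and none fell, at a false discovery rate (FDR, the edgeR p-value adjusted over all 21061 genes) under 0.05. These were Tub and Aipl1. Across all genes 1.98% were called at this threshold, 1.47% higher and 0.513% lower. At an unadjusted p under 0.05 there were 4 of 9 (Tulp1, Tub, Rd3 and Aipl1), where 28.7% of all genes reached it. The 3 replicates at 25 mM all lay above the 3 at 5 mM for 3 of 9 genes (Tulp1, Tub and Aipl1), against a background of 16.0% of all genes, and no member had all its 25 mM values below, against 15.8%. In either direction 31.8% of all genes were without overlap. The median log2 fold change of the 9 was 0.33, and that of all genes was -0.01. None of the 9 passed the stricter threshold that the study used (FDR under 0.01 and a fold change over 2), nor did any other gene in the fit reported here. The paper does report genes at those limits, Gucy2f and Arl6 among them, so its calls were not reproduced. The reason for this difference was not tested.

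**Figure D1:**
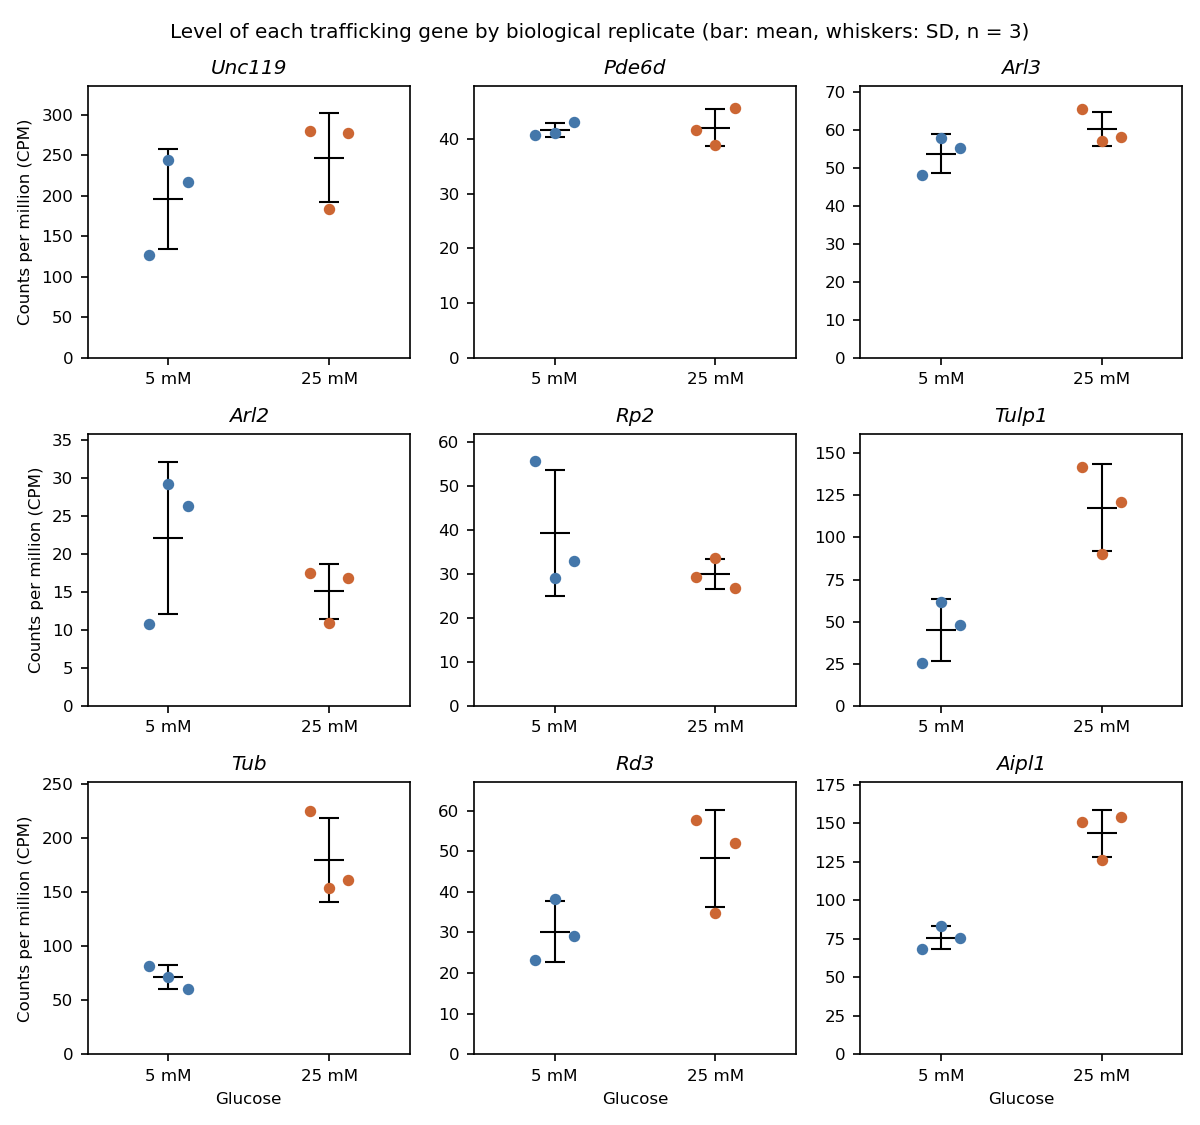
Level of each of the 9 genes in CPM (vertical axis from 0, scale set per gene) in the 3 biological replicates at 5 mM (blue) and 25 mM glucose (orange), with replicates 1 to 3 from left to right, the mean as a bar and the SD as whiskers. The groups are apart for Tulp1, Tub and Aipl1, and overlap for the other 6 genes.

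The lipid-binding carriers did not pass the test. Unc119, the acyl carrier, measured 127, 244 and 217 CPM in replicates 1 to 3 at 5 mM and 280, 184 and 278 CPM at 25 mM. The groups overlapped, with replicate 1 low at 5 mM and replicate 2 low at 25 mM, and the log2 fold change was 0.33 ± 0.28 (SE; FDR 0.443). It was 0.098 without replicate 1 at 5 mM and between 0.24 and 0.52 without any other 1 replicate. With a correction for GC content and length Unc119 had 0.83 (FDR 0.0103), in a fit that called 11.2% of all genes. Pde6d, the prenyl carrier, had the narrowest spread of the 9, with 40.8, 41.0 and 43.1 CPM at 5 mM and 41.6, 38.9 and 45.7 CPM at 25 mM. Its log2 fold change was 0.01 ± 0.16 (FDR 0.959).

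Within the Arl group no gene passed the test. Arl3, the GTPase that releases cargo from both carriers, measured 48.2, 57.9 and 55.3 CPM at 5 mM and 65.5, 57.1 and 58.3 CPM at 25 mM. These values overlapped, with a log2 fold change of 0.16 ± 0.16 (FDR 0.508).

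Rp2, which ends the active state of Arl3, measured 55.7, 29.1 and 33.0 CPM at 5 mM and 29.3, 33.6 and 26.9 CPM at 25 mM. Only replicate 1 at 5 mM stood out, and the log2 fold change was -0.39 ± 0.26 (FDR 0.346). Without that replicate it was -0.06. Arl2, a relative of Arl3 that binds the same carriers and also takes part in tubulin folding, measured 10.7, 29.2 and 26.3 CPM at 5 mM and 17.5, 10.9 and 16.8 CPM at 25 mM. The groups overlapped through the low replicate 1 at 5 mM, with a log2 fold change of -0.55 ± 0.38 (FDR 0.358). Leaving that replicate out gave -0.88 and an FDR of 0.0340, in a fit that called 26.6% of all genes. Exons of Arl2 share 51 bases with Batf2 on the other strand, and the library kit keeps strand but the counting does not say whether it was used, so reads there may be split between the genes.

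The tubby proteins had the largest log2 fold changes among the 9. Tub, the founding member of the family, lies at chr7:108950338-109034460 on GRCm38. It measured 81.8, 71.5 and 59.8 CPM at 5 mM and 224, 154 and 161 CPM at 25 mM. Every 25 mM replicate was well above every 5 mM replicate, and Tub rose with a log2 fold change of 1.34 ± 0.21 (FDR 0.0326), or 2.53-fold. Tulp1, which photoreceptors need for moving proteins to the outer segment (chr17:28351515-28365222), measured 25.4, 61.8 and 48.2 CPM at 5 mM and 142, 90.4 and 121 CPM at 25 mM. Its groups did not overlap either, but the replicates spread more widely, and the log2 fold change of 1.38 ± 0.32 had an FDR of 0.0622. The ratio of Tulp1 to Tub was 0.66 ± 0.30 (SD, n = 3) at 5 mM and 0.66 ± 0.09 at 25 mM. Exons of Tub share 1056 bases with the long noncoding RNA gene Gm26599 and 149 with Ric3, both on the other strand, so its count carries the same doubt about strand as that of Arl2.

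Among the helpers of the effector enzymes, Aipl1 rose and Rd3 did not pass the test. Aipl1, which with HSP90 folds phosphodiesterase 6 (chr11:72027963-72037509), measured 68.2, 83.3 and 75.4 CPM at 5 mM and 151, 126 and 154 CPM at 25 mM. The groups were clearly apart, with a log2 fold change of 0.92 ± 0.16 (FDR 0.0410), or 1.90-fold. Rd3, which holds guanylate cyclase inactive and guides it out of the endoplasmic reticulum, measured 23.3, 38.2 and 29.1 CPM at 5 mM and 57.7, 34.9 and 52.2 CPM at 25 mM. Replicate 2 at 25 mM fell inside the 5 mM range, and the log2 fold change was 0.68 ± 0.26 (FDR 0.136), and 0.99 (FDR 0.0145) with the correction for GC content and length. An antisense gene, Gm26670, shares 1452 exon bases with Rd3, so reads from it could be counted in Rd3. In the exact permutation test of 3 against 3, which cannot go below 0.1, Tulp1, Tub and Aipl1 each gave p = 0.1.

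The calls of Tub and Aipl1 depended on which samples entered. With 1 biological replicate left out in turn, Tub was called in 2 of 6 fits (FDR 0.0110 to 0.159) and Aipl1 in 1 of 6 (FDR 0.0145 to 0.182), while their log2 fold changes stayed between 1.15 and 1.45 and between 0.85 and 1.02. At 5 mM the omission of replicate 2 or of replicate 3, and at 25 mM that of replicate 1 or of replicate 2, left no gene of the whole table called by edgeR, although 17.6 to 18.8% of all genes and 3 or 4 of the 9 members still had an unadjusted p under 0.05.

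The start sites of the 9 genes were searched for short motifs in 12 RefSeq windows on GRCm38.p6, each of 250 bases before to 50 bases after a start site, on both strands. The core of the photoreceptor factor CRX (TAATCC) was found in 2 of 12 windows (Aipl1 and Unc119), where 7.06% of 32851 windows in the whole table hold it. The core used here for the rod factor NRL (TGCTGA) was found in 2 of 12 windows of the same genes, where 19.5% hold it. An E-box (CACGTG) lay in 2 of 12 windows (7.15% of all), a GC box (GGGCGG) in 4 of 12 (35.7%) and a CCAAT box (CCAAT) in 7 of 12 (37.4%), the last spread over 6 genes. Some genes have more than 1 window. Motif letters in a window are a description of the sequence and not of binding.

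The stretches upstream of the annotated starts are given for the 3 genes whose replicates did not overlap between conditions. They are from RefSeq on GRCm38.p6, 5′ to 3′ on the strand of the gene, with CRX and NRL cores in capitals on either strand. Only that of Aipl1 holds both, an NRL core and, nearer the start, a CRX core read as GGATTA. The stretches of Tub and Tulp1 hold neither.
Tub promoter, chr7:109010630-109010824, plus strand: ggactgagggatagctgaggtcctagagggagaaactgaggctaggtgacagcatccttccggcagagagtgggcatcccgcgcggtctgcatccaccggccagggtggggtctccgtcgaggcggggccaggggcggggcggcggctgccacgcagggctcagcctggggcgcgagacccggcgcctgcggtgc
Aipl1 promoter, chr11:72037510-72037759, minus strand: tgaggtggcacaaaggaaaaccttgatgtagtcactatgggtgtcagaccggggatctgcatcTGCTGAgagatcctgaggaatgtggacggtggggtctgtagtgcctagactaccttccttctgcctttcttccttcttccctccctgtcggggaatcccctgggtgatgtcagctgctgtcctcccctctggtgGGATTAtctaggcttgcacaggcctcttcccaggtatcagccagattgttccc
Tulp1 promoter, chr17:28365223-28365466, minus strand: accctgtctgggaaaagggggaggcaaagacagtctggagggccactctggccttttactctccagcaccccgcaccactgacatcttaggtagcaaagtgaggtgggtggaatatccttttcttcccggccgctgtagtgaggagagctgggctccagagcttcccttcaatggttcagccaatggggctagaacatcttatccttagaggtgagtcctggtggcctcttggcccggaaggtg

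Per unit of transcript length, on the TPM scale (transcript abundance relative to all transcripts) that allows genes to be compared, Unc119 was the most abundant of the 9 in both conditions, at 350.0 ± 123 TPM (SD, n = 3) at 5 mM and 476 ± 135 TPM at 25 mM. At 5 mM it was followed by Arl3 (120.0 ± 16.6 TPM), Pde6d (69.0 ± 3.92 TPM), Aipl1 (60.7 ± 8.54 TPM) and Tulp1 (55.5 ± 24.2 TPM), of which the last 3 overlapped each other. The other 4, from Rd3 at 27.6 ± 7.93 TPM down to Tub at 24.9 ± 3.36 TPM, overlapped each other. At 25 mM the order below Unc119 was Tulp1 (158 ± 45.6 TPM), Arl3 (146 ± 21.4 TPM) and Aipl1 (126 ± 22.3 TPM), whose ranges overlapped. Pde6d (75.4 ± 10.4 TPM) and Tub (mean 69.0, range 53.6 to 91.6 TPM) came next and overlapped, followed by Rd3 (48.4 ± 15.3 TPM), whose range overlapped that of Tub. Arl2 was the lowest at 19.3 ± 5.97 TPM, its range overlapping that of Rp2. Tub moved from place 9 to place 6 and Tulp1 from place 5 to place 2. These values sum all annotated transcripts of a gene, coding or not. At 25 mM protein-coding transcripts took a mean of 45.9% of Tulp1 counts, 51.6% of Aipl1 counts and 98.2% of Tub counts.

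Each biological replicate had a library in each batch, which allowed the glucose effect to be taken within each batch. The median log2 fold change of the 9 genes was 0.47 in batch 1 and 0.25 in batch 2, and that of all genes was 0.01 and -0.03. Tulp1 had a log2 fold change of 2.03 in batch 1 and 0.92 in batch 2, and Tub had 1.76 and 1.00. Aipl1 (1.05 and 0.89) was closer between batches. Batch 1 alone called these 3 genes, where 17.3% of all genes were called, and batch 2 alone called no gene of the table, with 11.7% at an unadjusted p under 0.05.

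The difference between batches was tested with a glucose by batch term. It passed an FDR of 0.05 for none of the 9 genes, nor for any of 20306 genes, in edgeR. The unadjusted p was under 0.05 for Tulp1 (-1.25 ± 0.44 on the log2 scale, FDR 0.257) and Arl2 (-0.88 ± 0.25, FDR 0.222), that is for 2 of 9 where 15.5% of all genes reached it.

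**Figure D2:**
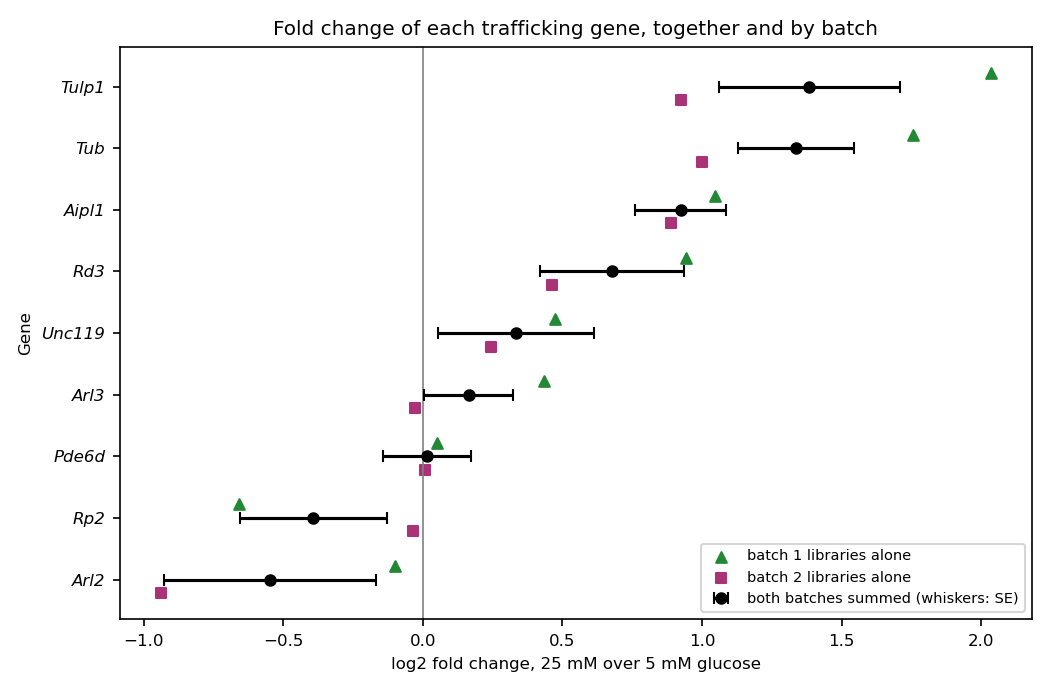
Log2 fold change of 25 mM over 5 mM glucose (horizontal axis) for each gene (vertical axis), from both batches summed (black circles, whiskers show the SE) and from batch 1 (green triangles) and batch 2 (purple squares) alone. For Tulp1 the batches lie at 2.03 and 0.92, and Arl3 lies at 0.43 in batch 1 and -0.03 in batch 2.

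The transcript table splits each gene into annotated isoforms, and here the picture differed between genes that looked alike at gene level. The share of a gene's counts on protein-coding transcripts was lower in every 25 mM replicate than in every 5 mM replicate for 4 of 9 genes (Unc119, Tulp1, Rd3 and Aipl1) and higher for none. Of the 10176 genes that had both coding and other transcripts and at least 60 counts in each replicate, 25.0% were lower without overlap and 1.67% higher. The median change of the share was -5.51 percentage points over the 9 genes and -1.54 over all genes. In batch 1 alone 6 of 9 genes were lower without overlap and in batch 2 alone 1 of 9. No count over all genes is given for a single batch, so these counts cannot be read against a background. The change of share was -33.2 percentage points in batch 1 and -10.3 in batch 2 for Aipl1, and -32.4 and -17.8 for Tulp1. It was -9.54 and -1.80 for Unc119, and -9.37 and -2.47 for Rd3.

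Aipl1 has 2 annotated transcripts. Aipl1-201 encodes the protein, and Aipl1-202 is annotated as a target of nonsense-mediated decay (NMD), the pathway that destroys messages with a premature stop codon. The coding transcript took 68.3, 73.7 and 78.6% of Aipl1 counts at 5 mM and 49.1, 50.3 and 55.3% at 25 mM (exact permutation p = 0.1, the smallest possible). As levels, Aipl1-201 measured 46.6, 60.7 and 58.5 CPM at 5 mM and 73.8, 64.7 and 86.6 CPM at 25 mM. Aipl1-202 measured 21.6, 21.6 and 15.9 CPM at 5 mM and 76.6, 63.9 and 69.9 CPM at 25 mM. Both were higher in every 25 mM replicate, and in these estimated counts the NMD transcript made up more of the gene's difference than the coding transcript did. The libraries were made from total RNA. Reads in an intron that a transcript keeps, here and for the retained-intron transcripts below, cannot separate it from unspliced RNA. With only protein-coding transcripts counted, Aipl1 had a log2 fold change of 0.60 ± 0.17 and was no longer called (FDR 0.118).

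Aipl1-202 holds 828 bases that lie in introns of Aipl1-201. It keeps a whole intron of 750 bases and has an extra exon of 78 bases, exon 4, which holds the stop codon that ends its reading frame. That exon is shown because it holds the stop codon, and it is the smaller piece of the sequence by which the annotated messages differ. Its letters are those of the GENCODE M21 transcript on GRCm38, 5′ to 3′, with the TGA stop in capitals at base 73 of the exon.
Aipl1-202 exon 4, chr11:72031128-72031205, minus strand: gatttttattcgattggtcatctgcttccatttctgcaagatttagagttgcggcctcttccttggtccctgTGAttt

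Tulp1 showed the larger change of share. Its coding transcripts took 62.1, 74.6 and 76.4% of counts at 5 mM and 42.6, 41.7 and 53.4% at 25 mM. Its 6 coding transcripts together measured 16.3, 46.1 and 35.7 CPM at 5 mM and 59.0, 39.0 and 66.0 CPM at 25 mM, which overlap. Its 6 retained-intron transcripts, which are not annotated as coding, together measured 9.56, 13.5 and 9.77 CPM at 5 mM and 77.3, 53.9 and 56.3 CPM at 25 mM, far apart. Fitted on retained-intron transcripts alone, with the normalisation set within that class, Tulp1 rose with a log2 fold change of 2.19 ± 0.24 (FDR 0.0377), in a fit that called 0.462% of 7365 genes. On protein-coding transcripts alone it was 0.92 ± 0.36 (FDR 0.176), in a fit that called 0.348% of 15517 genes. The difference between the 2 classes was not itself tested beyond the shares. Within the coding class the transcripts did not move alike. Tulp1-202 measured 9.27, 6.56 and 5.59 CPM at 5 mM and 35.9, 26.5 and 36.5 CPM at 25 mM. Tulp1-203 was also higher without overlap, and the other coding transcripts overlapped. Tulp1-201 took 0.01, 24.3 and 8.31% of Tulp1 counts at 5 mM, so the split among isoforms varied between replicates of the same condition.

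**Figure D3:**
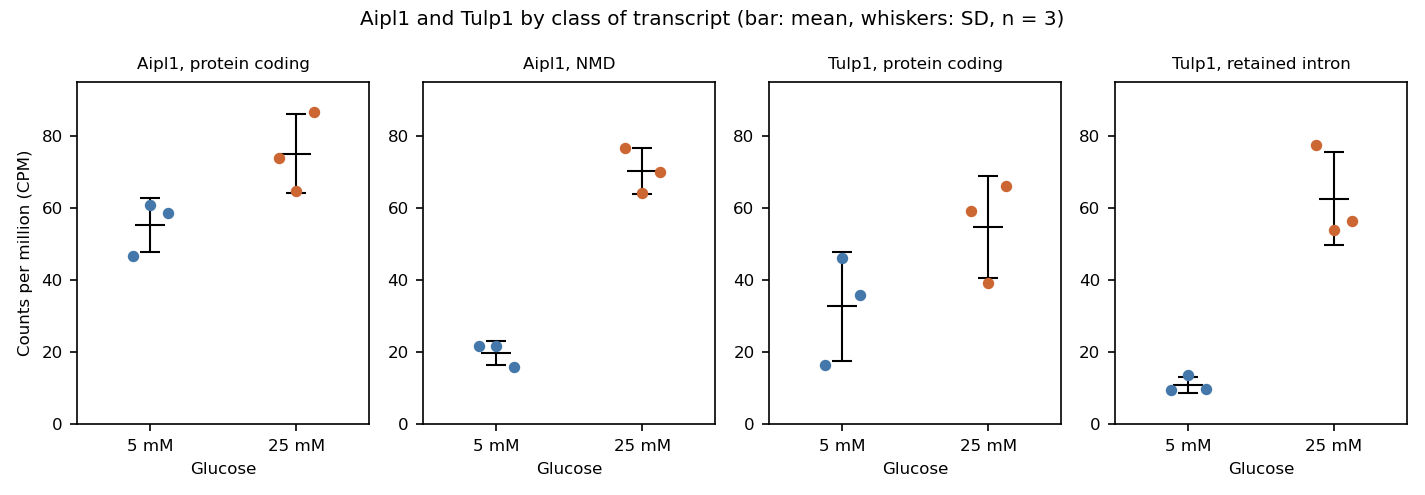
Levels in CPM (vertical axis from 0) of the protein-coding and nonsense-mediated decay (NMD) transcripts of Aipl1 and of the protein-coding and retained-intron transcripts of Tulp1, per biological replicate at 5 mM (blue) and 25 mM glucose (orange), with the mean as a bar and the SD as whiskers. Retained-intron transcripts of Tulp1, summed, stay at or below 13.5 CPM at 5 mM and reach at least 53.9 CPM at 25 mM. Its coding transcripts, summed, overlap.

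Tub behaved otherwise. Its coding share was 98.4, 98.0 and 98.9% at 5 mM and 97.7, 98.3 and 98.5% at 25 mM, and its coding transcripts alone rose with a log2 fold change of 1.47 ± 0.21 (FDR 0.0449), the only member called in that fit, which called 0.342% of genes higher.

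For Unc119 the coding share was 92.5, 91.7 and 92.4% at 5 mM and 84.4, 87.7 and 88.8% at 25 mM. Rd3 went from 95.4, 94.0 and 95.4% to 88.6, 89.6 and 89.9%. In both genes the remainder lay on retained-intron transcripts, whose level was above the 5 mM range in every 25 mM replicate, while the coding level overlapped. For Unc119 the retained-intron class measured 9.25 to 21.3 CPM at 5 mM and 22.3 to 41.4 CPM at 25 mM. Fitted on retained-intron transcripts alone, neither passed, with a log2 fold change of 0.69 ± 0.34 for Unc119 (FDR 0.311) and 1.47 ± 0.34 for Rd3 (FDR 0.0967).

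Arl2 and Arl3 varied most between replicates of the same condition. The single coding transcript of Arl2 took 5.50, 53.5 and 49.5% of its counts at 5 mM and 13.4, 2.81 and 28.2% at 25 mM, and the rest lay mainly on Arl2-203, which keeps an intron of 1418 bases. Arl3 had a coding share of 40.4, 78.9 and 70.5% at 5 mM and 52.4, 29.4 and 47.4% at 25 mM. In both genes replicate 1 was the lowest at 5 mM and replicate 2 the lowest at 25 mM, and the groups overlapped. At gene level the same replicates were the lowest of their groups for Unc119, Pde6d, Arl3, Arl2, Tulp1, Rd3 and Aipl1. For Rp2 both were the highest. For Tub replicate 1 was the highest at 5 mM and replicate 2 the lowest at 25 mM.

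**Figure D4:**
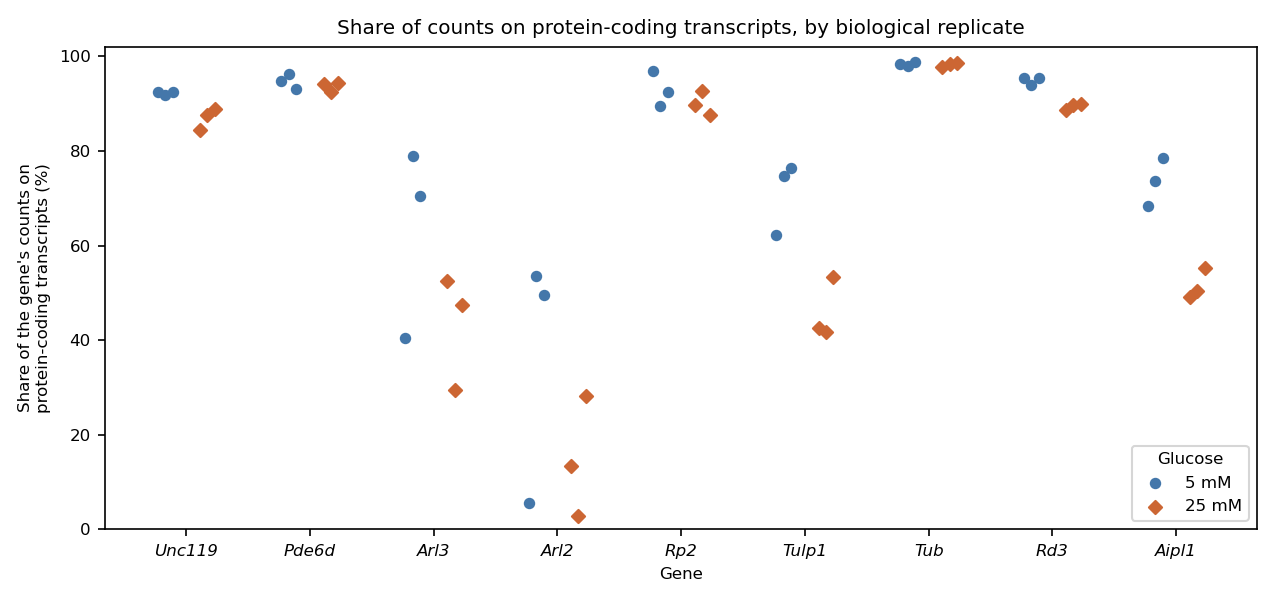
Share of each gene's counts that fell on protein-coding transcripts (vertical axis, percent) for the 3 biological replicates at 5 mM (blue circles) and 25 mM glucose (orange diamonds), with replicates 1 to 3 from left to right. Unc119, Tulp1, Rd3 and Aipl1 lie lower at 25 mM without overlap, Tub stays at 97.7 to 98.9%, and Arl2 and Arl3 scatter widely in both conditions.

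The proteins that these genes carry or fold were described from a list of 21 cargo genes, all of them tested. Of these, 5 of 21 rose and none fell, the median log2 fold change was 0.78, and 14 of 21 were higher without overlap, beside 1.47% of all genes that rose and 16.0% that were higher without overlap. The prenylated catalytic subunits of rod phosphodiesterase 6 rose, Pde6a from 246 ± 10.1 to 512 ± 49.9 CPM (log2 fold change 1.06 ± 0.16, FDR 0.0325) and Pde6b from 112 ± 2.17 to 349 ± 58.8 CPM (1.65 ± 0.18, FDR 0.0217). Grk1, a prenylated kinase of photoreceptors, rose by 2.16 ± 0.23 (FDR 0.0217). Both retinal guanylate cyclases, the clients of RD3, rose as well, Gucy2e by 1.97 ± 0.25 (FDR 0.0261) and Gucy2f by 3.13 ± 0.57 (FDR 0.0425). The lowest of the list were Gngt2, the cone transducin gamma subunit, at -0.59 ± 0.31 (FDR 0.244), and Inpp5e, a prenylated ciliary phosphatase, at -0.30 ± 0.22 (FDR 0.385). Gnat1, the rod transducin alpha subunit carried by UNC119, had 0.45 ± 0.28 (FDR 0.308). Pde6b and Gnat1 are also among the rod markers above.

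Set against their carriers, chosen as pairs after the values were seen, the cargo genes fell into different patterns. The ratio of Pde6b to Pde6d was 2.76, 2.77 and 2.54 at 5 mM and 9.99, 8.49 and 6.63 at 25 mM, and that of Grk1 to Pde6d was 2.34, 1.86 and 1.70 against 11.3, 8.84 and 6.20. Neither overlapped. In contrast the ratio of Gnat1 to Unc119 stayed within 4.98 to 5.35 at 5 mM and 5.13 to 5.91 at 25 mM, although Unc119 itself ranged from 127 to 280 CPM. The ratio of Pde6a to Aipl1 was 3.26 ± 0.24 at 5 mM and 3.59 ± 0.35 at 25 mM (SD, n = 3), with overlapping groups. That of Pde6b to Aipl1 went from 1.49 ± 0.15 to 2.45 ± 0.42 without overlap. Aipl1 was taken here as the whole gene, of whose counts the NMD transcript held a mean of 26.4% at 5 mM and 48.4% at 25 mM. Ratios to its coding transcript alone were not computed. Gucy2e over Rd3 was 1.60 ± 0.58 at 5 mM and 3.77 ± 0.99 at 25 mM, also without overlap. For these ratios no background over other pairs of genes is given.

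The regulators and relatives of the Arl proteins numbered 12, of which 1 rose. This was Arl6, the GTPase that recruits the BBSome to membranes, from 97.6 ± 29.3 to 401 ± 94.4 CPM (log2 fold change 2.04 ± 0.27, FDR 0.0261), and the median of the list was 0.04. The next highest was Elmod2, a GTPase-activating protein for Arl2, at 0.83 ± 0.27 (FDR 0.0979), and the lowest were Unc119b, the paralogue of Unc119, at -0.48 ± 0.27 (FDR 0.267), and Arl2bp, which binds Arl2, at -0.32 ± 0.17 (FDR 0.233). None of the 11 enzymes that attach or process lipid groups passed the test (median -0.09). The lowest were Nmt1, an N-myristoyltransferase, at -0.57 ± 0.27 (FDR 0.203) and Zmpste24, a protease of prenylated proteins, at -0.21 ± 0.18 (FDR 0.464). The highest were Icmt, which methylates prenylated proteins, at 1.05 ± 0.24 (FDR 0.0597) and Pggt1b, a subunit of an enzyme that attaches prenyl groups, at 0.21 ± 0.18 (FDR 0.450).

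Of the other tubby proteins, Tulp2 was too low to be tested, and Tulp3 (-0.09 ± 0.17, FDR 0.740) and Tulp4 (-0.20 ± 0.15, FDR 0.376) did not pass. The proteins of vesicle transport to the outer segment formed a list of 7 with no call and a median of -0.36. The highest were Rab11fip3, an effector of Rab11, at -0.04 ± 0.27 (FDR 0.930) and Arf4, a GTPase of the Golgi, at -0.13 ± 0.24 (FDR 0.746). The lowest were Asap1, an Arf GTPase-activating protein, at -0.74 ± 0.18 (FDR 0.0644) and Rab11a at -0.65 ± 0.22 (FDR 0.109). Of 6 partners or relatives of the chaperones none passed, with a median of 0.11. The lowest were Hsp90ab1, a cytosolic HSP90, at -0.87 ± 0.25 (FDR 0.0829), and Guk1, the guanylate kinase, at -0.13 ± 0.22 (FDR 0.726). The highest were Impdh1, an enzyme of guanine nucleotide synthesis, at 0.44 ± 0.23 (FDR 0.236) and Rd3l, the relative of Rd3, at 0.37 ± 0.24 (FDR 0.332). Over all 59 related genes tested, 6 rose and none fell, beside the 1.47% and 0.513% of all genes.

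**Figure D5:**
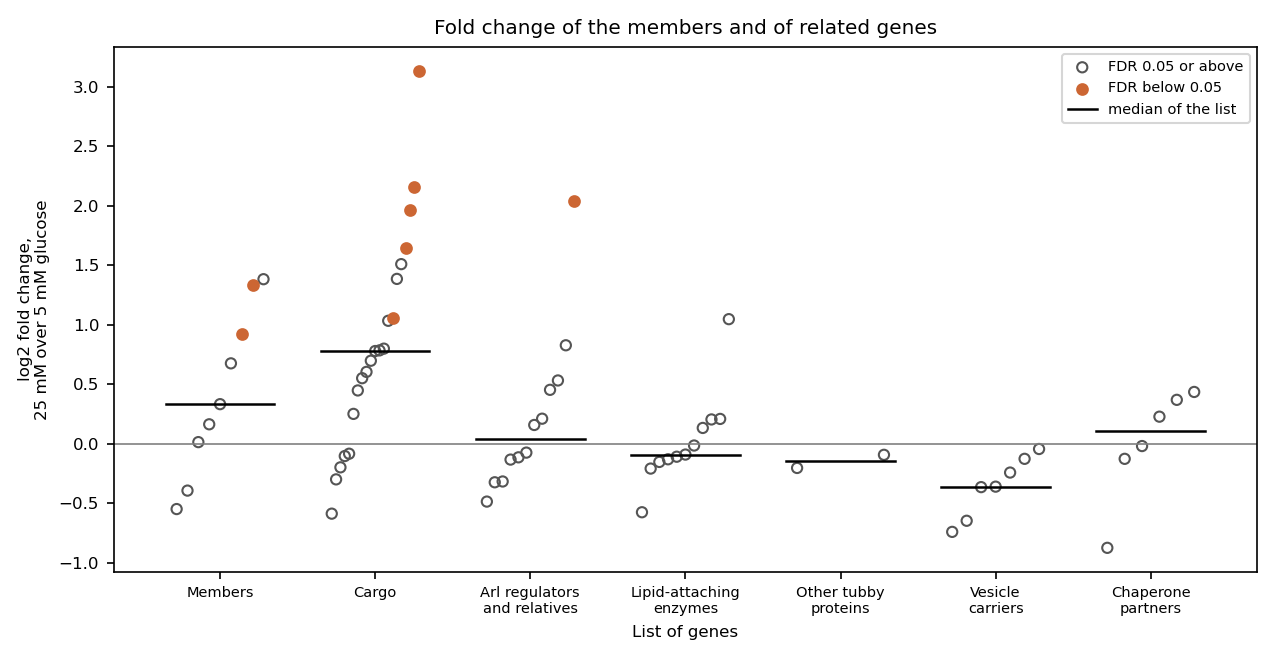
Log2 fold change of 25 mM over 5 mM glucose (vertical axis) for the 9 members and 6 lists of related genes (horizontal axis), with each gene as a circle, filled where the FDR was under 0.05, and the median of each list as a line. The calls lie among the members (2), the cargo (5) and the Arl regulators and relatives (1), and the cargo list has the highest median at 0.78.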

How the data were processed

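RNA-seq was described for 12 libraries of mouse retinal explants (TRIzol total RNA, libraries from a strand-keeping SMARTer Pico kit, paired Illumina reads). The authors deposited estimated counts per gene and per transcript that are not whole numbers (100% of the gene values above 0), with no scaling between libraries. The processing notes of the submitters name GRCm38, and the aligner, the counter and its use of strand are not given in the sources used here. Gene symbols and transcript classes came from GENCODE M21, which matched 90.8% of the gene identifiers, and the promoter windows came from RefSeq. Technical replicates were summed per biological replicate and rounded, giving 37944826 to 60098862 counts each. CPM values were scaled by TMM factors, and TPM values were computed from the transcript table with annotated lengths.

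Conditions were compared with edgeR 4.0.16 in R 4.3.3 (TMM, filterByExpr, quasi-likelihood test), with Benjamini-Hochberg adjustment over the 21061 genes tested. The script was tested on simulated data. Alternatives, among them DESeq2 1.42.0, are listed in the closing section, and 3 of them (a library left out, and the fits on coding or on retained-intron transcripts) were chosen after seeing the data. Members, lists and tests were chosen with earlier results of these data known. Of the 10 genes of the rule 1 is not reported here, nor are some related genes and markers. Named were the 9 members and, of each related list, the genes with an FDR under 0.05 and the 2 highest and 2 lowest. Gnat1 and the cell type markers were named beside that rule. Count depth limits the low genes, and counting error is not shown apart from the spread between replicates.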

Additional observations from a re-analysis of the deposited data

How the results depend on the processing

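Of the 9 genes 2 were called in the fit as reported. The count was 3 with no filter on low counts, with DESeq2 and with batch 1 alone (Tulp1 joined Tub and Aipl1), 5 with a correction for GC content and length, with or without a replicate block (Unc119 at 0.83, FDR 0.0103, and Rd3 at 0.99, FDR 0.0145, without the block), 1 on protein-coding transcripts only, and 0 with batch 2 alone or with the study's stricter limits (FDR 0.01, fold change 2). It ranged from 0 to 4 when 1 replicate was left out, with 4 reached without 5 mM replicate 1. Among the 59 related genes 6 were called, against 13 with no filter, 16 with DESeq2, 13 with batch 1 alone, 0 with batch 2 alone, 22 with the GC and length correction, with or without the block, 12 without the second library of 5 mM replicate 1, 0 at the stricter threshold, and 0 to 20 with 1 replicate left out. Of all genes 417 were called, against 1979 with no filter, 666 with the stricter filter, 3489 with DESeq2, 3279 with batch 1 alone, 0 with batch 2 alone (2203 at an unadjusted p under 0.05 in edgeR), 2364 with the GC and length correction, 1731 without that library, 54 on coding transcripts, 0 at the stricter threshold, and 0 to 5845 with 1 replicate left out. The coding share was lower without overlap for 4 of 9 genes, for 1 with batch 2 alone, and for 4 to 6 with 1 replicate left out. For these subsets of samples no count over all genes is given beside it.

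Same-numbered replicates did not deviate together (correlations of -0.01, -0.45 and 0.28 for numbers 1, 2 and 3), so the numbers were not taken as pairs. The highest correlation across conditions, 0.51, was between replicate 1 at 5 mM and replicate 2 at 25 mM. With a replicate block 990 genes and the same 2 members (Tub and Aipl1) were called, and with the block and the GC and length correction 3043 genes. Pde6d, near 0 throughout, changed sign with no filter (-0.0011), on retained-intron transcripts (-0.13) and among fits with 1 replicate left out (-0.052 to 0.080). Arl3 changed sign with batch 2 alone (-0.027) and on coding transcripts (-0.23). With 1 replicate left out the glucose by batch term ranged for Pde6d from -0.13 to 0.035 and for Aipl1 from -0.61 to 0.24. The cause of these shifts was not tested. With 3 replicates a condition, changes of about 2-fold, such as that of Aipl1, lay near the threshold.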
